A study of Mus musculus with 11 samples.

Results

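NKT thymocytes are T cells that leave the conventional path in the thymus after their receptor recognizes CD1d, and the transcription factor PLZF, encoded by Zbtb16, directs their effector differentiation. The intervals described here are stretches of chromatin that were accessible in NKT thymocytes and in none of the 3 other populations profiled. Peaks of all 9 ATAC-seq libraries were merged where they shared at least 1 bp, which gave 71400 intervals. An interval was NKT-only when it held a peak in both NKT libraries and no peak in any of the other 7. The members were therefore chosen by the measured peak calls, and their openness in NKT is a description and not a result. There were 1401 such intervals, which is 1.96% of all intervals and 4.67% of the 30007 intervals that held a peak in both NKT libraries.

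ATAC-seq, which maps open DNA by where the Tn5 transposase can insert adapters, was performed on cells of 4 kinds, all labelled as C57BL/6. CD4 single-positive thymocytes (CD4SP, 2 libraries) are the conventional counterpart of NKT thymocytes (2 libraries). From bone marrow came the common lymphoid progenitor (CLP, 3 libraries) and the innate lymphoid cell precursor (ILCP, 2 libraries), which also expresses PLZF. The general methods of the study describe NKT enrichment with a CD1d tetramer loaded with a glycolipid, and the gate and stages of these NKT libraries are not given in the sources used here. By the same methods ILCP were sorted as eGFP+ cells, for which the study lists a knock-in reporter allele of Zbtb16, so the expression of this gene was part of their definition. The mice were juvenile to young adult. The study describes the libraries of a population as biological replicates. The libraries held between 19343 and 41535 peaks, with CLP replicate 1 the smallest and NKT replicates 1 and 2 at 34701 and 38793. The number of reads behind each library is not in the peak files and the study's methods give only a range for all, so where a library lacks a peak, the site may still be open below the calling threshold. The labels were checked against start sites of marker genes. The Zbtb16 start site was covered by a peak in both NKT and both ILCP libraries, in CLP replicate 2 and in neither CD4SP library. All 6 T-lineage markers (the CD3 genes Cd3e, Cd3d, Cd3g and Cd247, the kinase gene Lck and Cd4) had a covered start site in every NKT and CD4SP library, against 1 in both ILCP libraries and 1 or 2 in the CLP libraries. Of the 6 NKT markers, 3 and 5 were covered in the NKT libraries against 3 in each CD4SP library, and Zbtb16 was the only one covered in both NKT libraries and in no CD4SP library. Il2rb and Cxcr6 were covered in all 4 thymic libraries, Slamf6 in both CD4SP libraries and NKT replicate 2, Tbx21 in NKT replicate 2 alone and Klrb1c in none. None of the 3 NK-cell markers was covered in NKT, and of the 4 markers of double-positive thymocytes, Cd8b1 was covered in NKT replicate 2 and none in replicate 1. Of the 4 myeloid markers and of the 4 B-lineage markers, 1 each was covered in both NKT libraries (Cebpa and Ebf1), and both were covered in most or all other libraries too.

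A lineage of this kind is set up by strong receptor signals. As background, these signals reach DNA through Egr factors, which bind GC-rich sites, through Nfat, which calcium signalling sends to the nucleus, and through AP-1, the Fos and Jun dimer. Tcf1 and Lef1, which bind Tcf/Lef sites, and Gata3, which binds Gata sites, act in T cell and innate lymphoid development, and Runx factors act in nearly all lymphocytes.

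The central 200 bp of 10 members are shown here because they carry the short sequences that were more frequent in NKT-only intervals than in the rest, near genes that the text goes on to describe. They are from RefSeq GRCm38.p6 (mm10), 5′ to 3′, in lower case. Capitals mark matches, on either strand, to the motifs whose letters follow in this paragraph. Matches to other motifs that were searched are not marked. A Tcf/Lef match is CTTTGAT or, equally, CTTTGAA. For Gata the letters searched were AGATAA, for AP-1 they were TGANTCA, for Nfat TGGAAAA, and for Egr GTGGGCG. None of the 10 windows overlaps an annotated exon. The Cxcr4 window was chosen after its values were seen.
Zbtb16 intron, Tcf/Lef and Gata, chr9:48720135-48720334, plus strand: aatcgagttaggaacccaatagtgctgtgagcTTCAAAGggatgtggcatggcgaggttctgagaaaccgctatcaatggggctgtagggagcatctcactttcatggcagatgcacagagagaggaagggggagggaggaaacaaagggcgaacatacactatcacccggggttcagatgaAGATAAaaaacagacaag
Zbtb16 intron, Nfat, chr9:48793836-48794035, plus strand: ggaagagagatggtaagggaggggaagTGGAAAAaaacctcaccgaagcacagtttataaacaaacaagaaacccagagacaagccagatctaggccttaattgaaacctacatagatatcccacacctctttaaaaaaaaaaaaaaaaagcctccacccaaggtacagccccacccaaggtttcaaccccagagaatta
Downstream of Icos, Tcf/Lef and Gata, chr1:61022420-61022619, plus strand: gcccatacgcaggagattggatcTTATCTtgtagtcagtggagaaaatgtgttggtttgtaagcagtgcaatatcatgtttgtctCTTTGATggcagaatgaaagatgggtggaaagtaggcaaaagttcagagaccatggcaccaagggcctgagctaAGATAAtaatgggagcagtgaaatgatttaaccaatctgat
Pdcd1 intron, Tcf/Lef, chr1:94042393-94042592, plus strand: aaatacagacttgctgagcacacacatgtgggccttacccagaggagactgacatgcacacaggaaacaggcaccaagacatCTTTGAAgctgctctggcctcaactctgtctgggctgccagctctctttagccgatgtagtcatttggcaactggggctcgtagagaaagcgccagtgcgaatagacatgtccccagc
Upstream of Slamf6, Tcf/Lef and Gata, chr1:171916131-171916330, plus strand: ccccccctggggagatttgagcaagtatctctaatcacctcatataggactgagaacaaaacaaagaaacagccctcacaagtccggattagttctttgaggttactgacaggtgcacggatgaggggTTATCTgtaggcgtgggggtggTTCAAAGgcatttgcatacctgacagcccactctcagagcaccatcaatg
Rad50 intron next to Il13, Gata, chr11:53655234-53655433, plus strand: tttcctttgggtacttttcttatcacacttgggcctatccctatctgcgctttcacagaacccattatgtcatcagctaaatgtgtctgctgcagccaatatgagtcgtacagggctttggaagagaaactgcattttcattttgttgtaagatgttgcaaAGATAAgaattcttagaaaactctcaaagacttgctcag
Nt5e intron, AP-1, chr9:88346941-88347140, plus strand: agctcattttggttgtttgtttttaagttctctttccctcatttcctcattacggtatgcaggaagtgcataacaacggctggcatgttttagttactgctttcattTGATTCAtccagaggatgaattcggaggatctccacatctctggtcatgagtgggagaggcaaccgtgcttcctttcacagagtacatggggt
Upstream of Zeb2, Egr, chr2:45197288-45197487, plus strand: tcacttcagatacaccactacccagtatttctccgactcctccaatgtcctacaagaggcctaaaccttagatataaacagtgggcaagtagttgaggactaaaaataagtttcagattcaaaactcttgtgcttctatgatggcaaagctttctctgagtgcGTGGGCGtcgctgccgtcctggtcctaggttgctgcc
Downstream of Slc17a6, AP-1, chr7:51724122-51724321, plus strand: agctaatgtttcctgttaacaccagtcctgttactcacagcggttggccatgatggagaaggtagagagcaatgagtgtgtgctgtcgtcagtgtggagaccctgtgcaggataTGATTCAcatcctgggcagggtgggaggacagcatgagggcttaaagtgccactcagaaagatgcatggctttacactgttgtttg
Upstream of Cxcr4, Tcf/Lef, AP-1 and Nfat, chr1:128808638-128808837, plus strand: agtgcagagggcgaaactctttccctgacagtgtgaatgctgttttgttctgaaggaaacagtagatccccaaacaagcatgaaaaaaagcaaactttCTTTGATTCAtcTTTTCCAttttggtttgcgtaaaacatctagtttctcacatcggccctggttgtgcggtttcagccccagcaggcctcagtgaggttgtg

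In the Cxcr4 window, the Tcf/Lef match at bases 99 to 105 and the AP-1 match at bases 102 to 108 overlap, and the Nfat match follows at bases 111 to 117. The same window also holds a Runx match, which is left in lower case. Its member lies 216 kb upstream of Cxcr4, which had 1 member of 32 intervals. This member ranked at score percentiles 35.9 and 10.9 among the peaks of NKT replicates 1 and 2. The Icos window holds Gata matches on both sides of its Tcf/Lef match, at bases 24 to 29 and 160 to 165. A match is a description of the letters and not a bound site.

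Tcf/Lef, AP-1, Nfat and Gata matches were each more frequent in NKT-only intervals than in all intervals. Of the 17 motifs searched in the central 200 bp, Tcf/Lef (2.04, 95% interval 1.84 to 2.26) and AP-1 (1.99, 1.74 to 2.28) had the largest ratios of shares, with overlapping intervals and an order that changed with the settings. Beyond 1 kb of a start site Egr (2.34) stood above both (1.79 and 1.77). Tcf/Lef was present in 293 of the 1401 NKT-only intervals, or 20.9% (95% Wilson interval 18.9 to 23.1), against 10.3% of all intervals and 5.73% of RefSeq promoter windows of the same length. AP-1 matched in 13.6% of NKT-only intervals (11.9 to 15.5) and 6.82% of all. Nfat matched in 7.28% (6.03 to 8.76) and 3.79% of all. Gata matched in 16.2% (14.4 to 18.2) and 9.75% of all. Every one of these 4 Wilson intervals lay above the share over all intervals. The intervals cover counting error only, and neighbouring members share libraries and sometimes a locus, so no test was made over members.

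The motif shares were not the same as those of other cell-type classes, and 2 patterns could be told apart. Intervals open in both CD4SP libraries and nowhere else numbered 1892, and in these AP-1 matched in 8.09% (6.94 to 9.40), Nfat in 4.33% (3.51 to 5.35), Tcf/Lef in 15.3% (13.7 to 17.0) and Gata in 10.9% (9.56 to 12.4). None of these 4 intervals overlapped the NKT-only one. In the 5025 intervals open in NKT and CD4SP together and in no other type, AP-1 stood at 7.58% and Nfat at 4.02%, also below the NKT-only shares. The 432 intervals open in NKT and ILCP alone showed the other pattern. Their Tcf/Lef share was 32.2% (27.9 to 36.7) and their Gata share 19.4% (15.99 to 23.4), the first above the NKT-only value and the second with an overlapping interval, whereas AP-1 stood at 8.56% (6.28 to 11.6) and Nfat at 2.78% (1.596 to 4.79), below them. AP-1 and Nfat were thus higher in NKT-only intervals than in any of the 3 classes, and Tcf/Lef and Gata were not.

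For Egr, the difference between NKT-only and all intervals depended on whether promoters were included. They occurred in 4.43% of NKT-only intervals (3.47 to 5.63) and in 3.10% of all intervals, but promoters are rich in this GC-containing site, with matches in 6.27% of RefSeq promoter windows. Beyond 1 kb from any start site, the NKT-only share was 4.38% (3.42 to 5.60, n = 1369) and that of all such intervals 1.87% (n = 58550). CD4SP-only intervals beyond 1 kb had a share of 1.45% (0.998 to 2.10), and ILCP-only and CLP-only intervals, counted at any distance, had 0.919% and 0.973%. Intervals open in NKT and CD4SP together, also counted at any distance, had 2.97% (2.53 to 3.47), and more of them lay within 1 kb of a start site (5.67% against 2.28% of NKT-only intervals). When peaks below the 50th score percentile of their library were dropped, the ratio of NKT-only to all intervals at any distance came to 1.02 (95% interval 0.704 to 1.48), and without CD4SP replicate 2 (0.986 to 1.49) or NKT replicate 2 (0.941 to 1.44) its interval also included 1. At least 1 AP-1, Nfat or Egr match was found in 324 NKT-only intervals, or 23.1% (20.99 to 25.4), against 13.2% of all intervals and 13.5% of CD4SP-only ones. Nr4a, also searched, was not raised, at 0.928% (0.543 to 1.58) against 1.04% of all intervals. In CD4SP-only intervals it matched in 3.33% (2.61 to 4.24). AP-1 and Nfat matches occurred together in 16 members, or 1.14% (0.704 to 1.85), and in 0.286% of all intervals.

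**Figure D1:**
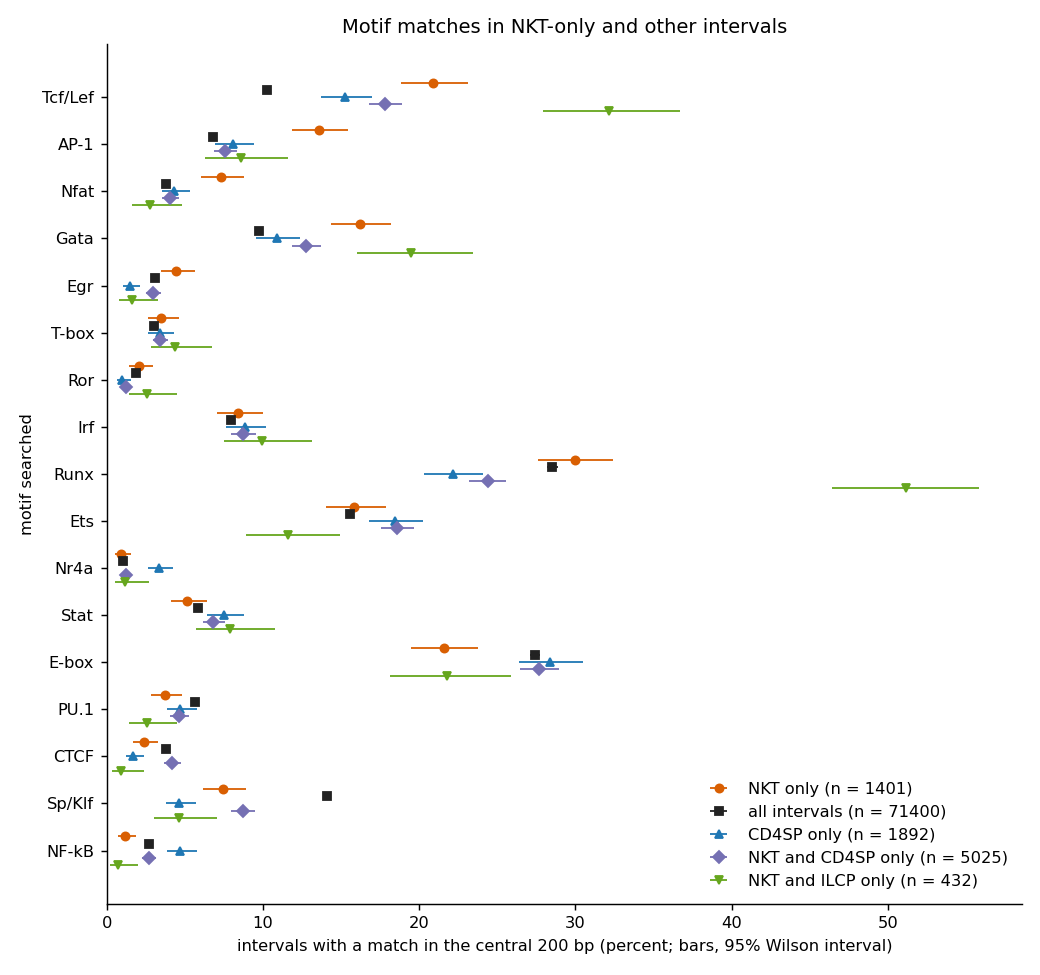
Share of intervals (x axis, percent) with at least 1 match to each of 17 motifs (y axis) in the central 200 bp, for NKT-only intervals and 4 comparison sets; bars are 95% Wilson intervals, and motifs are ordered by the ratio of NKT-only to all intervals. Tcf/Lef (20.9%), AP-1 (13.6%) and Nfat (7.28%) stand apart from all intervals in the NKT-only set, and Runx does so in the NKT and ILCP set (51.2%) but not in the NKT-only set (29.98%).

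Runx, T-box and Ets matches were about as frequent as in all intervals. Runx (TGTGGT or TGCGGT) matched in 29.98% of NKT-only intervals (27.6 to 32.4) and in 28.5% of all intervals. Beyond 1 kb from a start site the values were 30.1% and 31.3%. The Runx share was above that of CD4SP-only intervals (22.1%, 20.3 to 24.1) and below that of NKT and ILCP intervals (51.2%, 46.5 to 55.8) and ILCP-only intervals (58.9%, 56.97 to 60.7). T-box (GGTGTGA), the site of T-bet, matched in 3.50% (2.66 to 4.59) against 3.02% of all, and Ets (AGGAAGT) in 15.8% against 15.5%. Lower than in all intervals were the E-box (CAGCTG or CACCTG, 21.6% against 27.4%), CTCF (2.36% against 3.77%), PU.1 (GAGGAAGT, 3.71% against 5.67%, letters that also hold the Ets motif), NF-kB (1.14% against 2.72%) and Sp/Klf (GGGCGG, 7.42% against 14.1%). NF-kB was most unlike the CD4SP-only class, where 4.70% matched (3.84 to 5.75). Beyond 1 kb from a start site the Sp/Klf shares were 7.30% in NKT-only intervals and 6.78% in all.

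AP-1, Egr, Tcf/Lef and Runx matches were most frequent near the centre of the intervals, and Nfat and Gata matches less clearly so. Beyond 1 kb from a start site, AP-1 was found in 7.89% of NKT-only intervals in the 100 bp before the midpoint and in 3.14% in the outermost bin, 400 to 500 bp before it. In all other intervals the same bins held 3.86% and 3.12%. Egr rose from 0.657% to 2.63% between these bins in NKT-only intervals, and from 0.406% to 0.948% in the others. Nfat was uneven in NKT-only intervals, at 4.02% and 3.36% in the bins before and after the midpoint, 2.12% and 3.58% in the bins next to these, and 3.21% in the outermost bin before it. In the others it was lower at the centre (1.98% and 2.17%) than at the edge (2.95%). Gata was at 8.98% and 8.47% in the central bins of NKT-only intervals and at 7.30% at the edge, and in the others at 5.87%, 5.89% and 6.13%. Tcf/Lef reached 12.3% in the 100 bp after the midpoint of NKT-only intervals and 6.16% in the others. Runx was centred in both sets, at 16.9% and 17.3% in that bin. NKT-only intervals were shorter, with a median of 878 bp against 1015 bp, and when whole intervals of unequal length were searched, the ratio of NKT-only to all intervals fell to 1.15 for AP-1 and 1.14 for Tcf/Lef and turned below 1 for Nfat (0.943) and Egr (0.733). For AP-1 (1.06 to 1.24) and Tcf/Lef (1.08 to 1.21) the 95% interval still lay above 1, and for Gata (1.05, 0.990 to 1.11) it included 1.

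**Figure D2:**
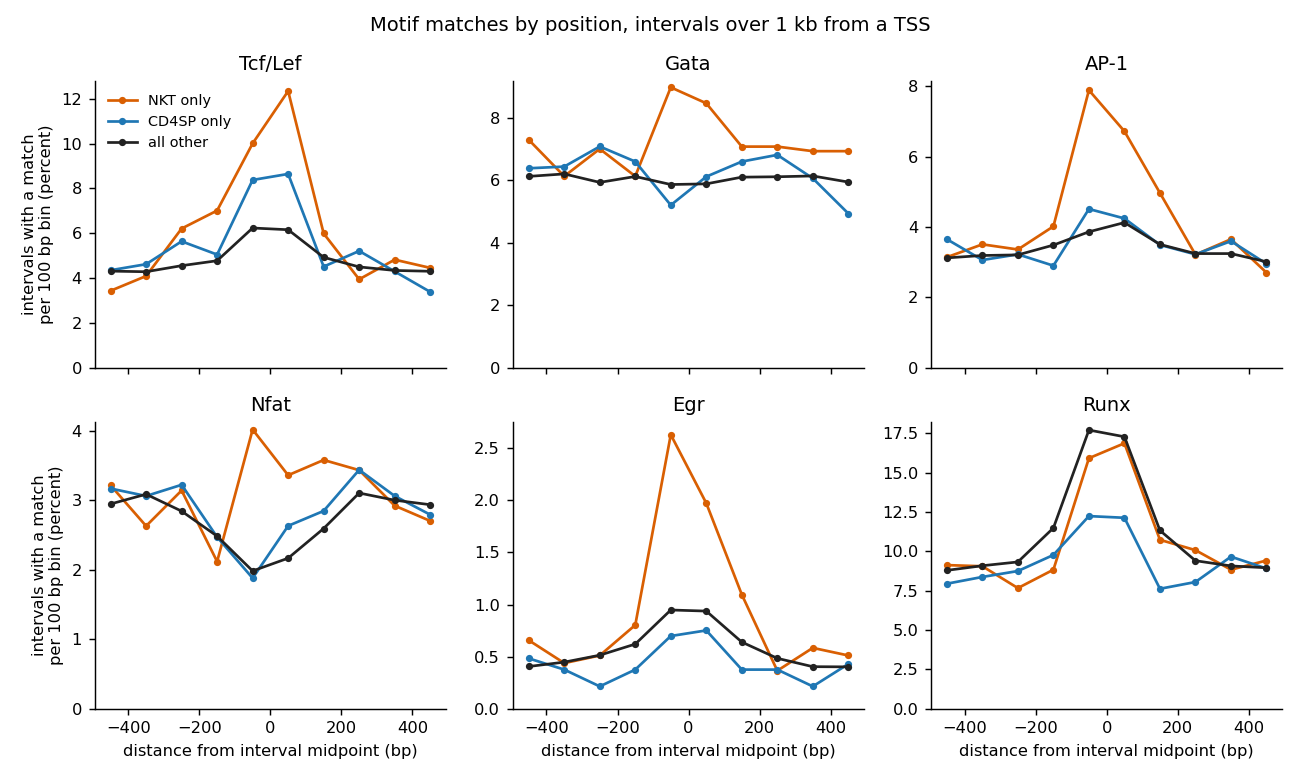
Share of intervals lying beyond 1 kb of any start site with a motif match (y axis, percent per 100 bp bin) by distance from the interval midpoint (x axis, bp), for NKT-only, CD4SP-only and all other intervals. In the NKT-only set the AP-1 line rises from 3.14% in the first bin to 7.89% just before the midpoint and the Egr line from 0.657% to 2.63%, while the Runx lines of NKT-only and all other intervals nearly meet at the centre (16.9% and 17.3% just after it).

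All words of 7 bases were also counted, after the motif shares were known. The windows are among those of the motif search and some words are the searched motifs themselves. The count is therefore no separate support for the shares. Among the 1390 words found in at least 4% of the NKT-only windows beyond 1 kb, the largest ratio to the other windows belonged to CGCCCAC, the Egr word on its other strand (4.38% against 1.81%). Next came GATCAAA (6.94% against 3.18%), which shares 6 letters with a Tcf/Lef word on its other strand, and ATGGAAA (8.77% against 4.23%), which overlaps the Nfat word TGGAAAA by 6 letters. The AP-1 word TGACTCA was present in 10.01% and 5.31%. CTCCCAC, at 10.2% and 5.63%, belongs to none of the motifs searched.

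The Wilson intervals of higher-ranked and lower-ranked members overlapped for 16 of the 17 motifs. Among the 701 members with the higher mean rank, AP-1 matched in 13.98% and Nfat in 7.28%, and among the 700 with the lower in 13.1% and 7.29%. Egr stood at 5.28% and 3.57%, and T-box in the opposite order at 2.57% and 4.43%. With NKT scores of at least 200, the ratios to all intervals were higher for Tcf/Lef (2.26), Gata (2.13) and Egr (1.94), and T-box matched in 1.67%. Introns and intergenic stretches were also alike, with AP-1 at 13.1% and 14.5% and Tcf/Lef at 20.9% and 20.99%. CTCF, which anchors chromatin loops, was the exception, with a match in 3 of the 701 higher-ranked members (0.428%, 0.146 to 1.25) and in 30 of the 700 lower-ranked ones (4.29%, 3.02 to 6.05). Intervals that only 1 NKT library held were less marked by AP-1, with 9.69% in the 898 intervals of replicate 1 alone and 7.57% in the 1916 of replicate 2 alone, and CTCF reached 12.5% (11.1 to 14.03) in the latter. Mean GC content of the central window was 46.9% for members beyond 1 kb, 46.3% for CD4SP-only intervals beyond 1 kb and 48.3% for all intervals beyond 1 kb.

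NKT-only intervals were mostly weak peaks. Peak scores were compared as percentiles among all peaks of the same library, since the score scale is not given in the sources used here. In NKT replicate 1 the members' percentiles ran from 0.0288 to 96.2 with a median of 26.9, and in replicate 2 from 0.0103 to 89.6 with a median of 25.7. In replicate 1, 226 members (16.1%) lay in the upper 50% of the library's peaks, in replicate 2, 161 (11.5%), and 108 (7.71%) did so in both. Spearman's rho between the percentiles was 0.528 over the 1401 members, which were chosen for having a peak in both. The peaks of both libraries shared bases in every member, with a median of 81.2% of their union in common and a median offset of 48.5 bp between midpoints.

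**Figure D3:**
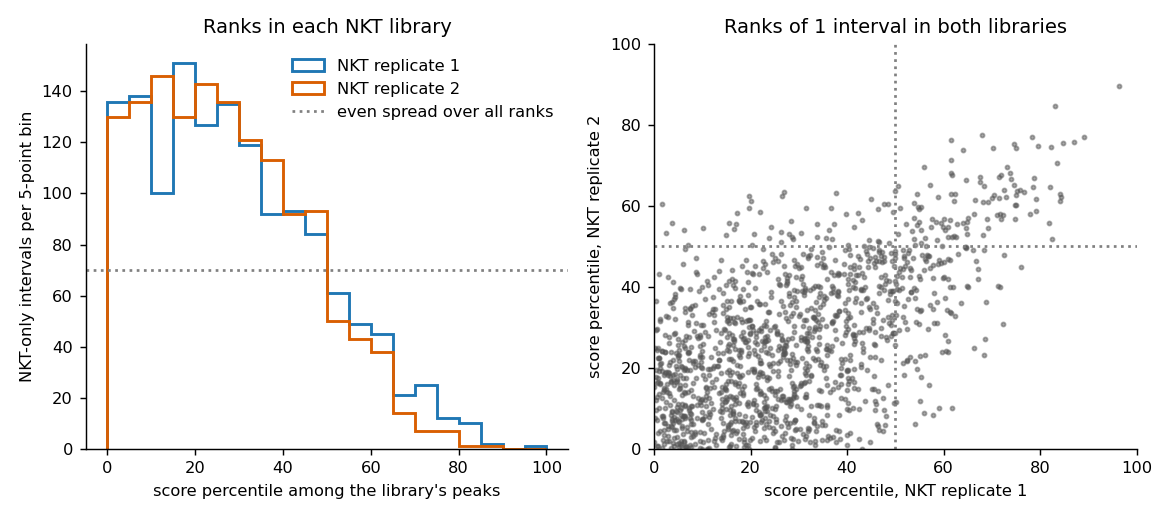
Left, number of NKT-only intervals per bin of 5 percentile points (y axis) by score percentile within the library (x axis) for NKT replicates 1 and 2, with the count that an even spread would give as a dotted line. Right, the percentile of each of the 1401 intervals in NKT replicate 1 (x axis) and replicate 2 (y axis), with dotted lines at the 50th percentile; 108 intervals lie above both lines.

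The border of the class was close for many intervals, which is given here as a description of the rule. Beside the 1401 members there were 1425 intervals with a peak in both NKT libraries and in exactly 1 other library, and in 935 of them (65.6%) that library was CD4SP replicate 2. Its peaks there were weak, with a median percentile of 22.5. CD4SP replicate 1 was the other library in 238, ILCP replicates 1 and 2 in 94 and 73, CLP replicates 2 and 3 in 43 and 42, and CLP replicate 1 in 0. The size of the class rested on 3 libraries. Without CD4SP replicate 2 it would hold 2354 intervals, without NKT replicate 1 it would hold 3325 and without NKT replicate 2 it would hold 2333, whereas without CLP replicate 1 it held 1401. Of the 2299 intervals that NKT replicate 1 alone would have given, 60.9% (58.9 to 62.9) had a peak in replicate 2, and of the 3317 of replicate 2, 42.2% (40.6 to 43.9) had one in replicate 1. For CD4SP the same shares were 60.9% and 48.8%, and for ILCP 72.4% and 73.2%.

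Members lay far from promoters. Only 32 of 1401 (2.28%) had their midpoint within 1 kb of a protein-coding start site, against 17.997% of all intervals, so 97.7% (96.8 to 98.4) lay beyond 1 kb, against 82.0% of all intervals. CD4SP-only intervals had a similar share, with 98.4% (97.7 to 98.9) beyond 1 kb and an overlapping Wilson interval. Introns held 712 members (50.8%, against 40.9% of all intervals), intergenic stretches 605 (43.2%) and exons 52 (3.71%). Beyond 1 kb, the median distance to a start site was 30.2 kb, close to the 29.6 kb of all intervals. The nearest peak of any of the other 7 libraries was a median of 5527 bp away, 205 members (14.6%) had one within 1 kb, and 469 (33.5%) had none within 10 kb. By chromosome, the share of intervals that were members ran, over the autosomes and X, from 0.813% on chromosome X (13 of 1600) to 2.65% on chromosome 9 (97 of 3664). Chromosome Y and the mitochondrial genome had 7 and 2 intervals, and none was a member.

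Zbtb16, the gene of the study, was the locus with the most members close together. Its gene body on chr9:48654297-48836222 (minus strand, ENSMUSG00000066687.5) held 5 NKT-only intervals, all intronic, in a stretch of 111979 bp. The interval chr9:48826056-48826884, 9.75 kb downstream of the gene start, ranked at percentile 23.8 in NKT replicate 1 and 6.92 in replicate 2. The next, chr9:48793474-48794398, lay 42.3 kb in, at percentiles 40.005 and 19.5, and holds the Nfat match printed above. These ranks put both in the lower 50% of their libraries. The nearest peak of another cell type lay 5812 bp from the first and only 463 bp from the second. Further in were chr9:48755290-48756048 at 80.6 kb (percentiles 16.4 and 40.6), chr9:48719695-48720776 at 116 kb (35.0 and 47.1) and chr9:48714906-48715797 at 121 kb (43.5 and 50.1). The member at 116 kb carries the Tcf/Lef and Gata matches shown, and that at 121 kb is the only one of the 5 with a Runx match in its central window. The start site of Nnmt, a methyltransferase gene, was the nearest one to both of these, so counts by nearest gene give Zbtb16 3 members of 16 intervals. Over the 13 that are no members, CD4SP replicates 1 and 2 each had 2 with a peak, NKT 5 and 6, ILCP 6 and 7, and CLP 0, 6 and 1. CLP replicate 2 was level with NKT replicate 2 there, and the other CLP libraries lay below all non-CLP libraries.

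By nearest start site the members fell to 1188 protein-coding genes, 1016 of them with 1 member and 172 with 2 or more. The gene lists were compared with the 1.96% of all intervals that are members. Of the intervals nearest to 42 transcription factor genes of NKT and related lineages, 28 of 783 were members (3.58%, Wilson 2.49 to 5.12). The same list was also above the background for CD4SP-only intervals, with 45 of 783 (5.75%, against 2.65% of all intervals), so a raised share there was seen in both classes. Cytokines and cytotoxic effectors had 7 of 166 (4.22%, 2.06 to 8.45), but 4 of the 7 lie at Il4 and Il13, and without the intervals of these genes the list had 3 of 158 (1.90%, 0.648 to 5.43), level with the background. Chemokine receptors, homing and adhesion genes had 11 of 310 (3.55%, 1.99 to 6.24), and these 3 lists, taken whole, had Wilson intervals above the background, the last only just. The homing list shares members with other lists, 2 at Itga2 with the NK-cell list and 1 at Itgam with the myeloid list. CD4SP-only intervals made up 2.41% of the cytokine list and 0.968% of the homing list. TCR signalling, SLAM receptors and costimulation had 9 of 335 (2.69%, 1.42 to 5.03), with an interval that includes it. Lower values came from NK-type receptors (2 of 137, 1.46%), cytokine receptors (2 of 226, 0.885%), genes of naive conventional CD4 T cells (2 of 253, 0.791%) and of double-positive thymocytes (1 of 121, 0.826%), all with intervals that include the background. The lists for cells that should be rare in this sort held 1 of 53 for the B lineage (1.89%), 2 of 50 for NK cells (4%) and 4 of 63 for myeloid cells (6.35%, 2.50 to 15.2), the highest share of all and also with an interval above the background. The part of such cells in the other results was not tested.

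**Figure D4:**
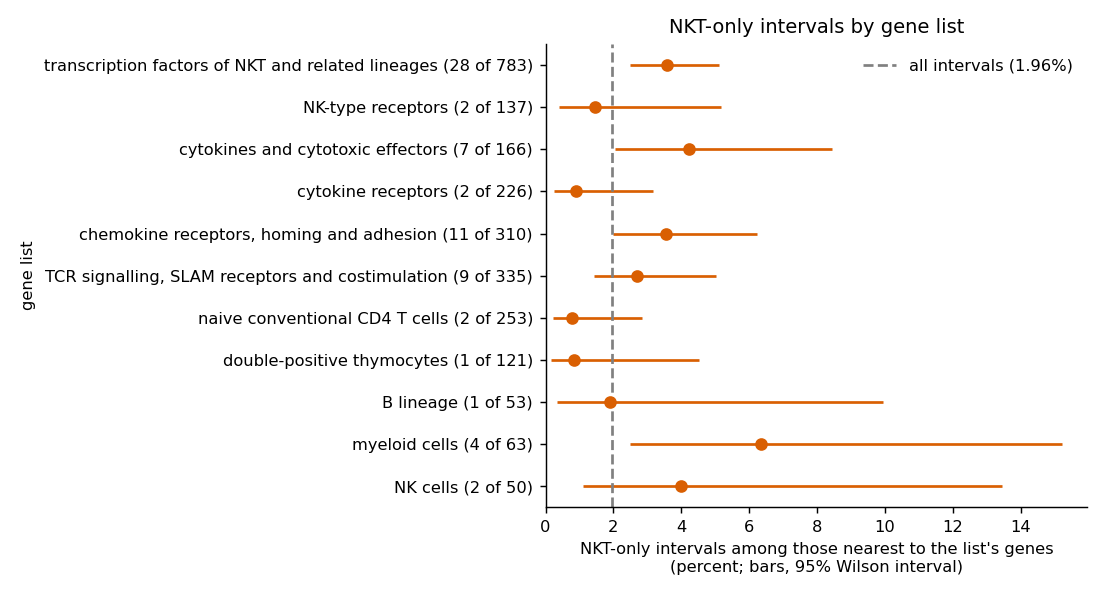
Share of the intervals nearest to each list's genes that were NKT-only (x axis, percent), by gene list (y axis), with the number of members of the number of intervals in brackets; bars are 95% Wilson intervals and the dashed line is the 1.96% over all intervals. Transcription factors (28 of 783), cytokines (7 of 166), homing genes (11 of 310) and myeloid genes (4 of 63) lie right of the line with their whole bar, and the point of cytokine receptors (2 of 226) lies left of it with a bar that crosses it.

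Among transcription factors, 9 met the rule for named genes, which asked for 2 members or for 1 in the upper 50% of the peaks of both libraries. Most of these loci held many intervals. Id2, an inhibitor of E proteins, had 3 members of 49 intervals, 197 to 285 kb upstream. The highest of these stood at percentiles 45.9 and 35.0 and holds an Nfat match. Maf, a factor of cytokine-producing T cells, had 3 members of 39 intervals, of which 2 lie in introns of Wwox, 475 and 579 kb from Maf. The third, 19.3 kb upstream, ranked at 55.9 in replicate 1 and at 8.87 in replicate 2, so the 2 libraries did not agree on its rank. Tox2, an HMG-box factor, had 3 members of 10 intervals, all in the lower 50% of both libraries. Runx1 also had 3, of 42 intervals, 1 in its own intron and 2 that lie 179.5 and 193 kb upstream, with the best at 53.2 and 38.8. Ahr, the aryl hydrocarbon receptor, had 1 member of 21 intervals, 24.0 kb upstream at 53.4 and 53.8. Rora, a nuclear receptor of innate lymphoid cells, had 2 members of 25 intervals, both in its introns, at 53.9 and 39.7 and at 15.4 and 16.7. Zeb2, a repressor of terminal effector cells, had 2 upstream members of 44 intervals, and the one 80.0 kb away (47.0 and 22.0) carries the Egr match printed above. Bcl11b, which secures T cell identity, had 2 weak members of 27 intervals, at 5.12 and 1.48 and at 3.82 and 36.2. Tbx21, Gata3, Eomes and Egr2 had 0 members of 2, 41, 14 and 8 intervals. With 1.96% of all intervals as members, so few intervals cannot tell these counts from the background. The Gata3 locus was open in 29 and 26 of its intervals in CD4SP and in 24 and 19 in NKT.

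The type 2 cytokine genes held 4 members within 40436 bp, 1 of 3 groups of 4. Il4, the defining type 2 cytokine gene, had a member at an annotated transcript start, chr11:53616942-53617884, at percentiles 30.9 and 30.4. That start lies inside the gene, and the member does not reach the outermost gene start at chr11:53618669. Of the other 3 intervals nearest to Il4, NKT libraries had 1 and 3 with a peak, ILCP 1 in each library, and CD4SP and CLP 0. Il13, which lies next to it, had 3 members of 4 intervals, and the fourth had a peak in NKT replicate 2 and CD4SP replicate 2. One, chr11:53626487-53627453, lay 7.73 kb downstream of the Il13 start site at 37.4 and 29.3, only 217 bp from a peak of another library. The other two lie in Rad50, whose introns are known to hold the locus control region of these cytokines. Of those, chr11:53654798-53655870 stood at 44.7 and 47.1 and chr11:53656539-53657377 at 16.5 and 27.1, and both hold a Gata match in the central window. Il4 was named after its values were seen, as were Il2, Il10 and Gzmb, which had 1 member each. The Il2 member covers the start site at 15.3 and 5.48 and has an Nfat match, the Il10 member lies 25.9 kb upstream at 49.6 and 28.7 with AP-1 and Runx matches, and that of Gzmb, a cytotoxic protease gene, lies 31.1 kb upstream at 34.2 and 25.8. Ifng had 0 members among 17 intervals, of which CD4SP held 7 and 11 and NKT 11 in each library. So few intervals cannot tell 0 from the 1.96% over all intervals.

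Among surface receptors, Pdcd1, Icos, Slamf6, Itga2, Il6st, Klrb1a and Ccr4 met the rule. Pdcd1, which encodes the inhibitory receptor PD-1, had 2 members of 22 intervals, and outside the members ILCP had more intervals with a peak there (13 and 11) than NKT (8 and 6). Its member chr1:94041864-94043122, in an intron of the gene 10.1 kb from the start site, ranked at 74.0 and 66.7 and holds 1 Tcf/Lef match, and the nearest peak of another library was 681 bp away. The other was 404 kb upstream at 29.1 and 14.3. Icos, a costimulatory receptor that NKT cells carry at high level, had 3 members of 24 intervals, all downstream, between chr1:61022034 and chr1:61054874. The first ranked at 57.2 and 35.6 with Tcf/Lef and Gata matches, and the others at 28.8 and 15.2 and at 27.7 and 5.28. The last of these lay only 98 bp from a peak of another library. Slamf6, a SLAM family receptor needed for NKT selection, had 2 of 9, a member 1.28 kb upstream (13.3 and 23.8) and a member 44.0 kb downstream (16.8 and 41.4), both with a Tcf/Lef match. Itga2, an integrin chain, had 2 of 14, the higher 17.1 kb upstream at 71.5 and 67.1. Il6st, the shared signalling chain gp130, had 1 of 16, chr13:112510396-112511564, at 71.8 and 67.7, only 307 bp from a peak of another library. Klrb1a, a gene of the NKR-P1 receptor family, had 2 members of its 3 intervals. Of these, 1 covers a transcript start inside the gene, at 23.3 and 9.30. It ends short of the outermost gene start at chr6:128623533. The remaining Klrb1a interval had a peak in the 3 CLP libraries and in no NKT library. The neighbouring gene Klrb1c had 0 members of 10 intervals. Klrb1 genes are close paralogs, so reads there may be shared among them and these counts are uncertain. Ccr4, a chemokine receptor gene, had 2 members of 10 intervals, at 22.4 and 18.6 and at 22.8 and 25.4. Cxcr6, named after its values were seen, had 1 in a Fyco1 intron 5.53 kb from its start site at 37.7 and 27.0. Il2rb had 0 members of 2 intervals.

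**Figure D5:**
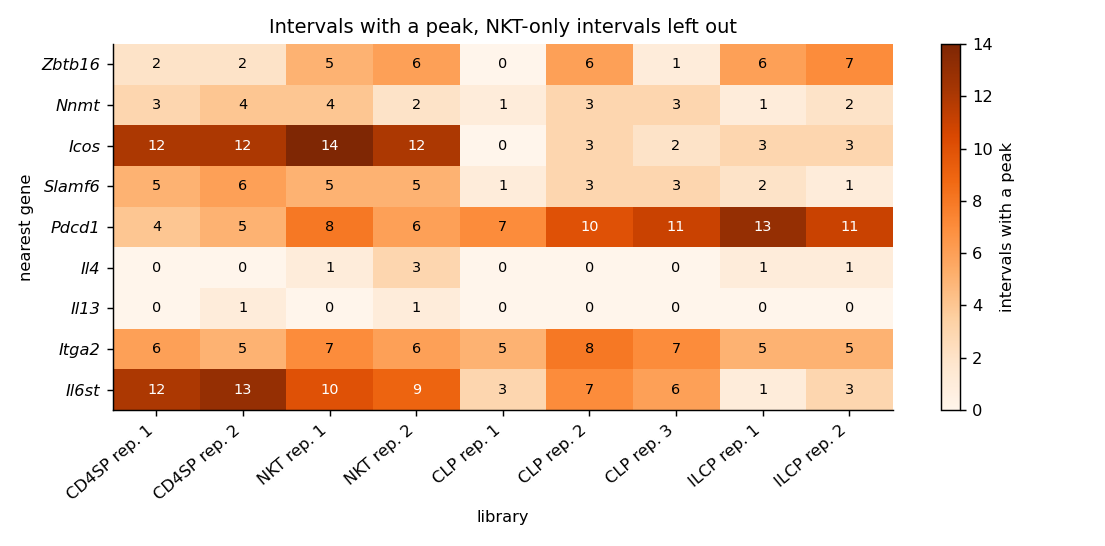
Number of intervals with a peak, NKT-only intervals left out (colour and printed number), by nearest gene (rows) and library (columns) for 9 genes near members. At Zbtb16 NKT (5 and 6) and ILCP (6 and 7) had more than CD4SP (2 and 2), at Il13 only 1 interval remained, and at Il6st CD4SP (12 and 13) had more than NKT (10 and 9).

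Genes with many members were not only immune genes. Rasa1, a Ras GTPase-activating protein gene, had 5 of 21 intervals, the most members by nearest start site, between 70.3 and 340.4 kb upstream. Slc35f3, a solute carrier gene, had 4 of 7 intervals, and the other 3 all had a peak in NKT replicate 1, none had one in NKT replicate 2, and 1 had one in CLP replicate 3. Its highest member stood at 72.4 and 57.8. St3gal4, a sialyltransferase gene, had 4 of 21, which all lie in introns of Kirrel3, a cell adhesion gene. Bcat1, which encodes a branched-chain aminotransferase, had 4 of 34, and 2 of these lie in Sox5. Sel1l, of the endoplasmic reticulum degradation complex, had 4 of 41, the nearest of them 750.1 kb away. Nt5e, which encodes the ecto-nucleotidase CD73, had 3 of 14, all in its own introns within 17124 bp, at 31.5 and 21.1, 41.2 and 28.2, and 49.6 and 11.3, and the last holds an AP-1 match. Fam53b had 3 of 18 and Adamtsl3 had 3 of 8, one of which ranked at 74.6 and 75.3. Within 50 kb of each other, members formed 24 groups of 3 or more and 112 pairs, and 1100 (78.5%) had no other member that close.

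The 10 members with the highest mean rank lay mostly away from known NKT genes. The first, chr7:51723583-51724861, was intergenic, 102 kb downstream of the start of the glutamate transporter gene Slc17a6, at 96.2 and 89.6, with an AP-1 match and no peak of another library within 31294 bp. It was the 1 interval nearest to Slc17a6 in any library. The others stood at mean percentiles from 74.9 to 83.9 and lay nearest to Cox7c, St3gal4, Serp2, Trpm6, Ythdc1, Pkn2, Atp2b1, Lrrn3 and Adamtsl3. Those near Atp2b1, a calcium pump gene (79.5 and 74.9), Pkn2, a protein kinase gene (78.4 and 76.9), Lrrn3 (83.4 and 70.7) and St3gal4 (89.0 and 77.02) hold a Tcf/Lef match.

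Promoters open in every library ranked about alike in NKT and CD4SP at genes with members, and promoters that open only in some cell types are not part of this comparison. Of the 1188 genes nearest to a member, 485 had a start site in an interval open in all 9 libraries, and the median percentile of that promoter's peak was 87.6 and 91.7 in the NKT libraries and 88.2 and 91.3 in the CD4SP libraries. Over all 6676 such genes the medians were 86.1 and 90.5 in NKT and 86.2 and 89.9 in CD4SP. The difference between the mean NKT and the mean CD4SP percentile had a median of 0.107 points for genes with a member and 0.186 for all genes, and was positive for 51.3% and 53.1% of them. For the 662 genes nearest to a CD4SP-only interval the median was -1.01, positive for 36.4%.

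The T cell receptor alpha locus, where the 2 thymic populations carry different rearrangements, bears on the labels. The NKT receptor joins Trav11 to Traj18, and on the joined allele the DNA between them is deleted. Between these segments (chr14:53519860-54200776, 680917 bp) there were 29 intervals, of which CD4SP replicates 1 and 2 held 14 and 25, NKT replicates 1 and 2 held 2 and 8, and the other libraries 0 or 1. The segment held 0 NKT-only intervals and 6 CD4SP-only ones, beside shares of 1.96% and 2.65% over all intervals. With 29 intervals, 0 members cannot be told from the background. Deleted DNA and closed chromatin cannot be told apart there either. A member, chr14:54220231-54221134, covers the beginning of the constant gene Trac at percentiles 29.6 and 45.6.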

How the data were processed

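ATAC-seq peaks of 9 libraries were used (CD4SP 2, NKT 2, CLP 3, ILCP 2), grouped by their titles. The authors aligned reads to mm10 with Bowtie and called peaks per library with MACS, whose version is not given in the sources used here. Picard and HOMER are also named in the submitters' processing notes. The deposited files list peak positions with a score, which has no stated scale and is at least 120 in every library, so scores were compared only as percentiles within a library. The Runx1 ChIP and input libraries were not analysed here.

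Peaks sharing 1 bp or more were merged. Intervals were assigned to the nearest start site of 21951 protein-coding genes (GENCODE M21), and those with a midpoint within 1 kb were called promoter-proximal. The central 200 bp (GRCm38.p6) were searched on both strands for 17 short motifs, as were the central 200 bp of 32851 RefSeq promoter sequences. NF-kB and CTCF were searched with degenerate motifs. Shares have 95% Wilson intervals, which cover counting error only. Intervals are not replicates, no read counts were used, and no test was made. The 7-base words and the alternatives for motif ratios and the cytokine list were added after the data were seen.

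Named genes were those of 6 lists (transcription factors, NK-type receptors, cytokines, cytokine receptors, homing, TCR signalling) with 2 or more members or 1 in the upper 50% by score in both NKT libraries, the 10 genes with the most members, the genes nearest to the 10 highest-ranked members, and Zbtb16. Members and lists were chosen with earlier results of these data known. Classification and motif search were tested on simulated data. Python 3.11.15, numpy 2.4.6, pandas 2.3.3, scipy 1.17.1 and matplotlib 3.10.9 were used. The alternatives numbered 12, beside leaving out each of the 9 libraries. Some genes of the lists are not reported here by name.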

Additional observations from a re-analysis of the deposited data

How the results depend on the processing

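No paired analysis was possible because the results come from no test. The number of NKT-only intervals, 1401, came to 420 with NKT scores of at least 200, 4215 with a peak in either NKT library, 508 with the 19343 highest-scoring peaks of each library, 618 with the higher-scoring 50% of peaks and 3073 when only CD4SP was compared. The number of genes, 1188, came to 386, 3113, 469, 564 and 2290, and the percentage beyond 1 kb of a start site, 97.7, to 98.6, 96.0, 95.7, 96.8 and 94.6 in the same order. Leaving out 1 library at a time gave 1401 to 3325 intervals, 1188 to 2584 genes and 95.2 to 98.2% beyond 1 kb. The 3 libraries that moved the count by over 1.5 times were CD4SP replicate 2 (2354 intervals, 1944 genes), NKT replicate 1 (3325, 2584) and NKT replicate 2 (2333, 1828).

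The Runx share, 29.98%, came to 27.1% with either NKT library, 32.5% with equal peak numbers, 32.7% with the higher-scoring 50%, 35.2% with only CD4SP compared and 64.3% over whole intervals, and to 26.8 to 30.6% with libraries left out. The T-box share, 3.50%, came to 1.67% with scores of at least 200 and 13.8% over whole intervals, and to 3.31 to 3.84% with libraries left out. Whole intervals are longer than 200 bp and unequal in length, so their shares are larger by construction.

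The ratios of NKT-only to all intervals stayed above 1 except over whole intervals, where Egr turned to 0.733 and Nfat to 0.943, and AP-1 came to 1.15, Tcf/Lef to 1.14 and Gata to 1.05, whose 95% interval (0.990 to 1.11) included 1. With scores of at least 200, Tcf/Lef was 2.26, Gata 2.13 and Egr 1.94. With either NKT library, AP-1 was 1.47, Nfat 1.54, Tcf/Lef 1.66 and Gata 1.39. With equal peak numbers, AP-1 was 2.32 and Egr 1.11, and with the higher-scoring 50%, Nfat was 1.58 and Egr 1.02. With only CD4SP compared, AP-1 was 1.69, Nfat 1.52 and Egr 1.08. Beyond 1 kb of a start site, Egr was 2.34, Tcf/Lef 1.79 and Gata 1.46. With libraries left out the ratios ran from 1.45 to 1.99 for AP-1, 1.57 to 1.92 for Nfat, 1.17 to 1.43 for Egr, 1.68 to 2.11 for Tcf/Lef and 1.33 to 1.71 for Gata. For Egr the 95% interval of the ratio, 1.11 to 1.83 as reported, included 1 with equal peak numbers (0.737 to 1.68), with the higher-scoring 50% (0.704 to 1.48), with only CD4SP compared (0.890 to 1.31), without CD4SP replicate 2 (0.986 to 1.49) and without NKT replicate 2 (0.941 to 1.44), so its difference was lost there. The share of the cytokine list that was NKT-only, 4.22%, came to 1.90% with the Il4 and Il13 intervals left out, an alternative chosen after seeing the data. The cause of these shifts was not tested. Read depth per library is not in the peak files, so an interval without a peak in a library may be open below its calling threshold.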
